A study of Homo sapiens with 36 samples.

Results

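The genes examined encode the subunits of oxidative phosphorylation, the 5 protein complexes of the inner mitochondrial membrane. They were taken as the genes on the array whose symbol starts with NDUFA, NDUFB, NDUFC, NDUFS, NDUFV, UQCR, COX4 to COX8 or ATP5, or is SDHA, SDHB, SDHC, SDHD or CYC1. Of the 94 symbols that matched, 8 assembly factors, 2 pseudogenes and 1 antisense RNA were dropped, which left 83 of the 20045 genes with a probe. Complex I gave 36 genes, complex II 3, complex III 9, complex IV 17 and complex V 18, each read from its brightest probe. The prefixes also took in ATP5IF1, an inhibitor of complex V, COX7A2L, a supercomplex factor, NDUFAB1, which also serves as acyl carrier protein, and UQCRHL, a near-identical copy of UQCRH whose probe cannot be told apart from it with certainty. NDUFA4, NDUFA4L2, SDHB, UQCRFS1 and the subunits encoded by mitochondrial DNA were not analysed here.

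LNCaP is a prostate cancer line that grows in response to androgen. LNCaP/Empty carried an empty vector, and the clones HIF12 and HIF49 carried a stable HIF1a transgene, a retroviral construct whose product resists degradation in oxygen; each of HIF12 and HIF49 is 1 clone. LNCaP/Empty and HIF12 were measured after 4 h with 1 nM R1881, a synthetic androgen, or with vehicle (0.01% ethanol), following culture in charcoal stripped serum, with 5 arrays per group. A further 16 arrays carry the label Normal, 6 of LNCaP/Empty and 5 of each clone; no source used here defines that word, and the growth text is identical for all 36 arrays. Whether the arrays of a group are separate cultures is not stated, so p-values measure the spread between these samples, which may be technical, and in bulk RNA fewer cells of a type and less RNA per cell cannot be told apart.

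Electrons from NADH enter the chain at complex I and those from succinate at complex II, and they pass through ubiquinone, complex III and cytochrome c to oxygen at complex IV. Complexes I, III and IV pump protons, and complex V, the ATP synthase, uses the gradient to make ATP. HIF1 is known to restrain respiration in low oxygen, among other ways through PDK1, which inhibits pyruvate dehydrogenase, and through an exchange of the complex IV subunit COX4I1 for COX4I2 by LONP1. Many subunit genes are known targets of the transcription factors NRF1 and GABPA, an ETS family member, which couple nuclear genes to mitochondrial content.

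Between 15374 and 17839 of 48105 probes were detected per array, and arrays correlated with each other at 0.964 to 0.993. HIF1A, the gene of the transgene, was higher in HIF12 than in LNCaP/Empty on 2 of its 3 probes. On the first of them, LNCaP/Empty arrays lay between 7.93 and 8.93 and HIF12 arrays between 9.45 and 10.31 (log2 intensity). The HIF49 arrays read 10.00, 10.19, 10.00 and 10.35 in replicates 2 to 5, but 7.45 in the library labelled HIF49 Normal replicate 1, below every LNCaP/Empty array. Since HIF1A goes against the label of that library, the HIF49 differences below are given with and without it. It also had the fewest detected probes, and HIF49 Normal replicate 4 was the 1 array of 36 that correlated best with an array of another group, LNCaP/Empty Normal. Luminal prostate markers KLK3, TMPRSS2, FOLH1, HOXB13, KRT8 and KRT18 were detected on all 36 arrays and KLK2 on 33. The basal markers KRT5 and KRT14, the endothelial markers PECAM1 and CDH5 and the leukocyte markers PTPRC and CD3E were detected on none, as was COL1A2 of fibroblasts, while COL1A1 was detected on 7, DCN on 3 and LUM on 1. VWF and CD68, listed as endothelial and leukocyte markers, were detected on all 36.

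Promoter sequence is shown for 4 subunit genes that later results turn on: NDUFB4, which changed most between culture groups, NDUFA6 and UQCR11, which were lower in HIF12, and ATP5MC1, which fell where NDUFB4 rose. Windows run across the RefSeq start in GRCh38.p14, 300 bases each on the strand of the gene, and capitals mark the NRF1 core GCGCATG or the ETS core CCGGAAG on either strand. The NDUFB4 window (chr3:120596086-120596385, plus strand) holds 2 overlapping NRF1 cores as 1 palindrome, NDUFA6 (chr22:42090723-42091022, minus strand) holds 1 NRF1 core, UQCR11 (chr19:1605413-1605712, minus strand) holds 2 ETS cores, and ATP5MC1 (chr17:48892537-48892836, plus strand) holds neither.
NDUFB4: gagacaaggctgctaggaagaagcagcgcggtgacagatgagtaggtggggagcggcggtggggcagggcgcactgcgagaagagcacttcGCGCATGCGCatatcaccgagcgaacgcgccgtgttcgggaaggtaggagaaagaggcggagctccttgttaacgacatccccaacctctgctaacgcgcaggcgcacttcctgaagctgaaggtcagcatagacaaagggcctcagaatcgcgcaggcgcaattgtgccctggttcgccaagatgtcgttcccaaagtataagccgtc
NDUFA6: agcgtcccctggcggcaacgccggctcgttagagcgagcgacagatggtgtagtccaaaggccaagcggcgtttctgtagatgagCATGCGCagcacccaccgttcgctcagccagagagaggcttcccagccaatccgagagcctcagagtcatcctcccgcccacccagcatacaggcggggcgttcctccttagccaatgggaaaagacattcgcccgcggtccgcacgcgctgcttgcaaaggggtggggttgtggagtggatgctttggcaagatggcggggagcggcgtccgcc
UQCR11: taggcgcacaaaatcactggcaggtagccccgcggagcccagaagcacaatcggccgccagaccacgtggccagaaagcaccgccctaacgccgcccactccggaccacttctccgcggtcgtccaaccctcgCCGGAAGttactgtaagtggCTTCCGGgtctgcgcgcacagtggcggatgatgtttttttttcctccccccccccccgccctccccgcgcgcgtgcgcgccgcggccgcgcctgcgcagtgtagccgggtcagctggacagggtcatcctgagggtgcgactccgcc
ATP5MC1: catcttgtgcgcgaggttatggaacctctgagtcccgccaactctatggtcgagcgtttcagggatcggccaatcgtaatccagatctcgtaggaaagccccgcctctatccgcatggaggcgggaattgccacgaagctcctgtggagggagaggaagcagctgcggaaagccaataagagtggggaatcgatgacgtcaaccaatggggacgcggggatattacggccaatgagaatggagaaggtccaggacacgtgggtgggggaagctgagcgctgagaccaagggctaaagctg

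RefSeq promoter windows were found for 68 of the 83 genes, 81 windows in all. The NRF1 core lay in 16 of them (19.8%, against 4.43% of 35116 windows of all genes) and the ETS core in 21 (25.9% against 10.3%). By complex, the NRF1 core lay in 8 of 39 complex I windows, 1 of 2 of complex II, 0 of 6 of complex III, 2 of 16 of complex IV and 5 of 18 of complex V. The core of the hypoxia response element (ACGTG or GCGTG, either strand) lay in 59.3% of subunit windows and 48.4% of all, and the TATA box letters TATAAA in 8.64% and 11.5%. These shares describe letters in a window and not bound sites.

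The subunit genes were nearly all expressed, and most kept close to 1 level in all 7 groups. Of the 83, 75 were detected on all 36 arrays, NDUFC2 on 32 and NDUFA5 on 4. NDUFS6 and 5 tissue-restricted isoforms of complex IV (COX4I2, COX6A2, COX6B2, COX7A1 and COX8C) were detected on none. Their widespread counterparts COX4I1, COX6A1, COX6B1, COX7A2 and COX8A were detected on all 36. So was COX7B2, a complex IV isoform known from testis, at a mean log2 intensity of 7.67. Over the 75 genes detected throughout, the highest and lowest of the 7 group means differed by a median of 0.28 on the log2 scale, and in 67 genes by under 0.5. The range ran from 0.07 for NDUFS4, a complex I subunit, to 1.60 for NDUFB4. Without the library labelled HIF49 Normal replicate 1, the median range was 0.26, the range of NDUFS4 was 0.15, the narrowest was 0.09 for ATP5F1A and the widest 1.32 for NDUFB4.

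Among core subunits, the range was narrow in some and above the median in others, and these values include all HIF49 arrays. UQCRC1, a core protein of complex III, had group means between 11.61 and 11.69 (log2 intensity), and ATP5F1A, the alpha subunit of the ATP synthase, between 14.32 and 14.45. SDHA, the flavoprotein of complex II, ranged from 10.45 to 10.67. COX4I1, the common isoform of COX4, ranged from 14.36 to 14.51, and the undetected COX4I2 read 4.46 to 5.01 on single arrays, in both clones as in LNCaP/Empty. NDUFS1, which carries iron-sulfur centres of complex I, had a wider range, from 7.28 to 7.70, and the catalytic ATP5F1B from 15.15 to 15.42. Of the 3 genes for the c subunit of the ATP synthase rotor, ATP5MC1 ranged from 12.06 to 12.53, ATP5MC2 from 13.47 to 13.61 and ATP5MC3 from 6.53 to 6.92. Among the genes detected on 32 or more arrays, the widest ranges after NDUFB4 were those of NDUFC2 (1.08), COX7B2 (0.93) and UQCR11 (0.83).

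Subunit genes were weakly correlated with each other. Across the 75 genes, the median of all pairwise correlations was 0.06 within groups and 0.10 over the 7 group means (0.08 without the library labelled HIF49 Normal replicate 1), where all genes share the same arrays. Median levels per array over the 83 genes ran from 12.28 in the library labelled HIF49 Normal replicate 1 to 12.71 in LNCaP/Empty R1881 replicate 1. TMEM35B, GSTZ1 and ATRX were the genes whose 7 group means followed the median of the subunits most closely (Pearson's r = 0.98, 0.95 and 0.95, the highest of 10875 genes compared, with all arrays included). With 7 points per gene, the highest of so many correlations can be large by chance, and a link to the subunits was not tested.

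**Figure D1:**
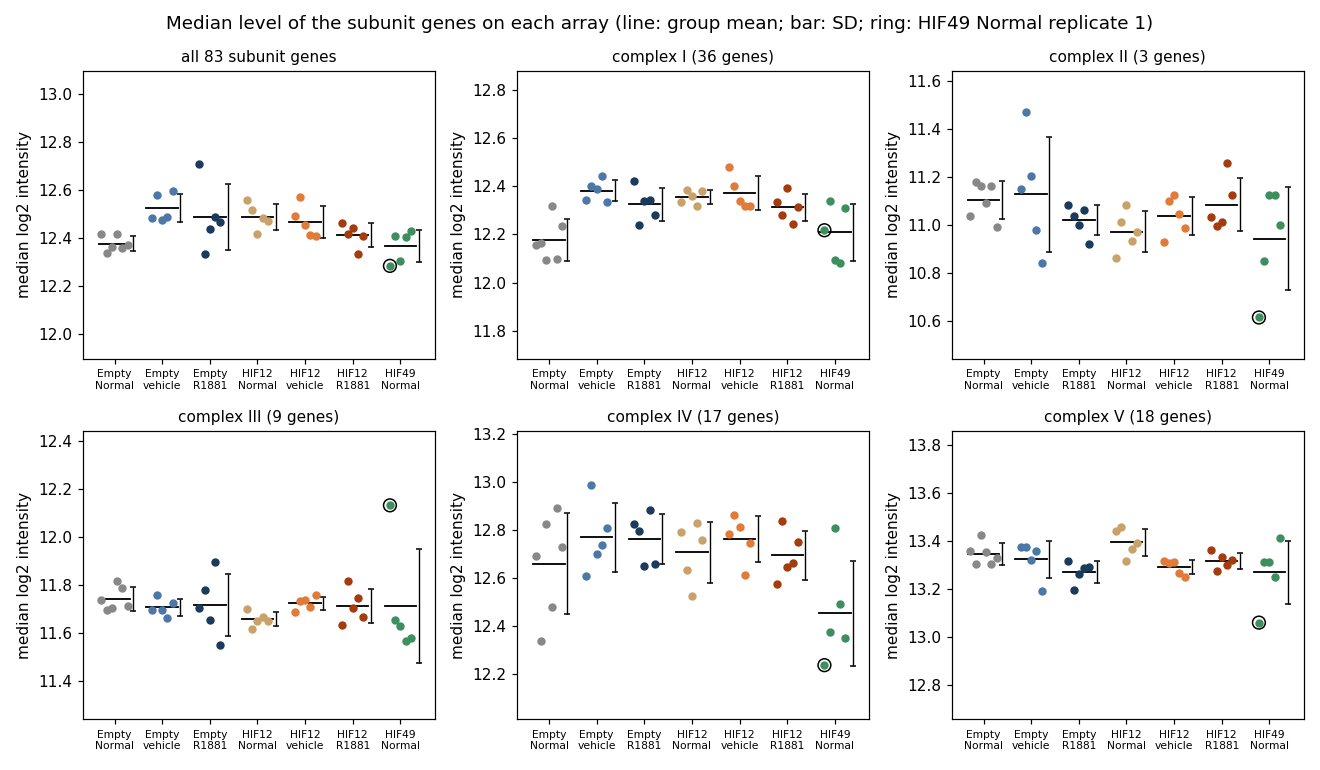
Median log2 intensity of the subunit genes on each array, for all 83 genes and by complex, with 1 point per array, a line at the group mean and a bar of 1 SD; every panel spans the same range. The ringed library labelled HIF49 Normal replicate 1 is the lowest array over all genes, at 12.28, and the highest in complex III, at 12.13.

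No subunit gene passed the test after 4 h of androgen. With R1881 against vehicle in LNCaP/Empty, 0 of 83 subunit genes passed an adjusted p of 0.05 in limma (4 had an unadjusted p under 0.05), while 3.47% of the 10951 genes detected on at least 5 arrays were higher and 1.73% lower. Of those 10951 genes, 1675 had an unadjusted p under 0.05. Differences ran from -0.27 for NDUFB9 to 0.27 on the log2 scale, with a median of -0.01 against -0.02 for detected genes. For all 75 genes detected throughout, the 95% interval of the difference stayed within 1.5-fold. In HIF12, 0 of 83 passed as well (1 at an unadjusted p under 0.05), against 2.78% of detected genes higher and 0.886% lower. At an unadjusted p under 0.05 stood 1308 of the 10951 detected genes. Differences ran from -0.34 for NDUFB4 to 0.12 for NDUFC1, and 74 of 75 intervals stayed within 1.5-fold. The difference of the R1881 effect between HIF12 and LNCaP/Empty passed for 0 subunit genes (0 at an unadjusted p under 0.05), and for 0% of detected genes in the positive and 0.0183% in the negative direction.

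KLK3, the androgen-induced gene of prostate specific antigen, rose on the same arrays. Its level was 7.76 ± 0.38 (SD, n = 5) with vehicle and 9.03 ± 0.04 (n = 5) with R1881 in LNCaP/Empty, and 6.64 ± 0.30 and 7.70 ± 0.26 in HIF12 (n = 5 each), with no overlap of arrays in either line. Around the chain, NDUFAF4, an assembly factor of complex I, fell by 0.50 in LNCaP/Empty (adjusted p = 0.022) and by 0.55 in HIF12 (adjusted p = 0.011). MRPS18A, of the small subunit of the mitochondrial ribosome, rose by 0.55 (adjusted p = 0.0020) and 0.48 (adjusted p = 0.015). GABPB1, the partner subunit of GABPA, rose by 0.53 in LNCaP/Empty (adjusted p = 0.013). CHCHD4, which imports small cysteine-rich mitochondrial proteins, fell by 0.26 in HIF12 (adjusted p = 0.027). No other gene of the related lists, which cover assembly, fuel entry, HIF-linked brakes, biogenesis, mitochondrial ribosomes and cytochrome c with quinone synthesis, passed in either line.

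**Figure D2:**
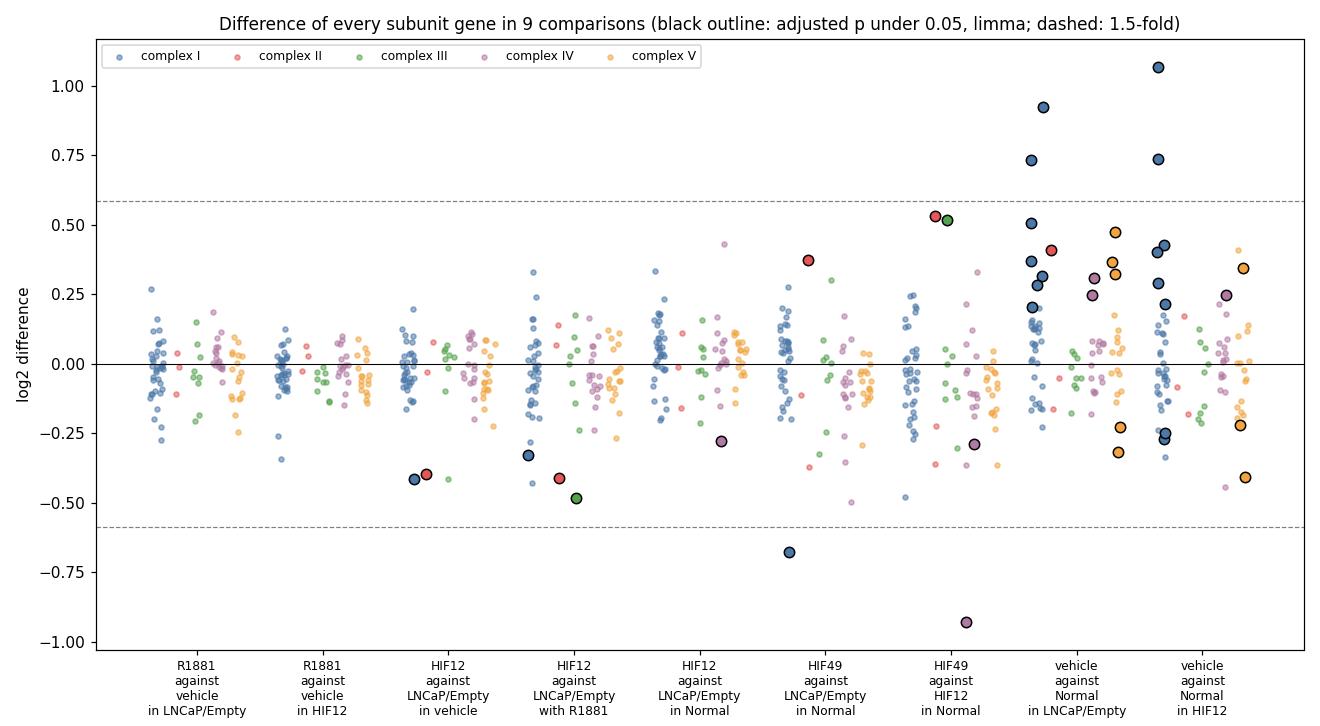
Log2 difference of each of the 83 subunit genes in 9 comparisons, coloured by complex, with a black outline where the adjusted p was under 0.05 (limma) and dashed lines at 1.5-fold. No gene is outlined in either R1881 comparison, and NDUFB4 is the highest point at 0.92 and 1.07 in the comparisons of vehicle with Normal.

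Few subunit genes differed between clone HIF12, with its constitutively active HIF1a, and LNCaP/Empty. In the fit reported here, those that passed were all lower in HIF12 and under 1.5-fold. Under some other settings, given with the processing below, 1 or 2 genes passed as higher. HIF12 and LNCaP/Empty arrays in vehicle and R1881 also serve the androgen comparisons, and the LNCaP/Empty Normal arrays serve both clones. In vehicle, 2 of 83 genes were lower and 0 higher at an adjusted p of 0.05 in limma (6 at an unadjusted p under 0.05), against 3.87% and 4.03% of detected genes. With R1881, 3 were lower and 0 higher (18 unadjusted), against 4.73% and 6.16%. In Normal, 1 was lower and 0 higher (9 unadjusted), against 4.68% and 3.77%. The shares of subunit genes that were lower were 2.41%, 3.61% and 1.2% of the 83. Over the 76 subunit genes detected on at least 5 arrays they were 2.63%, 3.95% and 1.32%, each below that of detected genes. Unadjusted p-values under 0.05 were found for 2570, 3233 and 2491 of the 10951 detected genes in the 3 settings. Medians over the subunits were -0.03, -0.04 and 0.03, and 74, 72 and 74 of the 75 genes detected throughout had 95% intervals within 1.5-fold. Arrays of HIF12 and LNCaP/Empty did not overlap for 5 of 83 subunit genes in each setting, against 11.2%, 14.4% and 11.9% of detected genes.

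SDHC, the haem-bearing membrane anchor of complex II, was lower in HIF12 in both arms of the androgen experiment. In vehicle, it read 11.36, 11.54, 11.61, 11.60 and 11.62 on the LNCaP/Empty arrays and 11.26, 11.16, 11.12, 11.22 and 10.99 on the HIF12 arrays. With R1881 it read 11.67, 11.56, 11.41, 11.50 and 11.54 against 11.23, 11.00, 11.01, 11.26 and 11.12. Every HIF12 array lay below every LNCaP/Empty array in both arms, with differences of -0.40 ± 0.09 (SE, adjusted p = 0.0067) and -0.41 ± 0.09 (adjusted p = 0.0035). In Normal the difference was -0.16 ± 0.08 and did not pass (adjusted p = 0.52). A second probe of SDHC was lower in all 3 settings, by -0.43 (adjusted p = 0.021) in vehicle, -0.43 (adjusted p = 0.018) with R1881 and -0.54 (adjusted p = 0.0010) in Normal. The other measured subunits of complex II, SDHA and SDHD, did not pass. When arrays were scaled to a common median instead, the R1881 difference of SDHC did not pass (-0.30, adjusted p = 0.072).

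NDUFA6, a small subunit of the matrix arm of complex I that binds the acyl carrier protein, followed the same pattern. In vehicle the arrays read 10.05, 10.26, 10.21, 10.15 and 9.85 in LNCaP/Empty and 9.67, 9.71, 9.58, 9.74 and 9.76 in HIF12. With R1881 they read 10.11, 9.68, 9.87, 9.89 and 9.97 against 9.45, 9.64, 9.64, 9.64 and 9.51. Again no arrays overlapped, and the differences were -0.41 ± 0.08 (SE, adjusted p = 0.0010) and -0.33 ± 0.08 (adjusted p = 0.0092). In Normal the difference was -0.13 ± 0.07 (adjusted p = 0.58). The test of the vehicle against Normal shift between the lines gave -0.28 ± 0.11 with an adjusted p of 0.65. With median scaling NDUFA6 did not pass in either arm (-0.34, adjusted p = 0.057, and -0.19, adjusted p = 0.34).

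UQCR11, the smallest subunit of complex III, had the largest difference with R1881 among the subunits. Its arrays read 8.59, 7.90, 8.27, 8.14 and 8.31 in LNCaP/Empty and 7.64, 7.56, 8.05, 7.86 and 7.68 in HIF12, so that HIF12 replicate 3 overlapped the lowest LNCaP/Empty array. The difference was -0.48 ± 0.12 (SE, adjusted p = 0.013). Without LNCaP/Empty R1881 replicate 1 it was -0.40 and did not pass (adjusted p = 0.064), nor did it with median scaling (-0.36, adjusted p = 0.052). In vehicle the difference of -0.42 ± 0.12 lay just outside the threshold (adjusted p = 0.052).

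COX7A2, the widespread isoform of a small complex IV subunit, was the 1 gene that passed between HIF12 and LNCaP/Empty in Normal. HIF12 arrays read 14.16, 14.20, 13.85, 14.15 and 14.16, all below the lowest of 6 LNCaP/Empty arrays (14.28, median 14.39, highest 14.44). The difference was -0.28 ± 0.07 (SE, adjusted p = 0.019). Without HIF12 Normal replicate 3, the lowest array, it was -0.22 and did not pass (adjusted p = 0.13).

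Among genes that build the chain, several passed in more than 1 setting in HIF12. In vehicle, with R1881 and in Normal, 0, 1 and 1 of 40 assembly factors were higher and 2, 3 and 2 lower. Of 76 mitochondrial ribosomal proteins, 1, 0 and 0 were higher and 5, 6 and 2 lower. Of 12 genes of cytochrome c and quinone synthesis, 1, 2 and 1 were higher and 0 lower. Of 13 biogenesis regulators, 0 were higher and 1, 1 and 0 lower. Among detected genes, 4.03%, 6.16% and 3.77% were higher and 3.87%, 4.73% and 4.68% lower. MRPS10, of the small mitochondrial ribosomal subunit, was lower by -0.80, -0.87 and -0.83 in vehicle, with R1881 and in Normal (adjusted p = 1.4e-09, 1.9e-10 and 1.4e-10). SDHAF4, which helps assemble the flavoprotein of complex II, was lower by -0.59, -0.50 and -0.36 (adjusted p = 0.00027, 0.0015 and 0.026). The complex III assembly factor UQCC2 was lower by -0.39, -0.44 and -0.27 (adjusted p = 0.00023, 2.9e-05 and 0.010). Its partner UQCC1 was higher by 0.41 with R1881 (adjusted p = 0.0036) and 0.50 in Normal (adjusted p = 0.00017). TFB2M, an initiation factor of mitochondrial transcription, was lower by -0.47 in vehicle and -0.31 with R1881 (adjusted p = 0.00021 and 0.018).

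Of 10 genes listed as HIF-linked brakes on respiration, 1 was higher and 0 lower in vehicle and with R1881, and 0 passed in Normal. Unadjusted p-values in limma were under 0.05 for 3, 2 and 0 of the 10 in these settings. Among detected genes, 4.03% were higher in vehicle and 6.16% with R1881. The 1 that passed was LONP1, the matrix protease, which was higher by 0.41 in vehicle (adjusted p = 0.017) and 0.58 with R1881 (adjusted p = 0.00029) but differed by -0.07 in Normal (adjusted p = 0.92). PDK1 was detected on 0 of 36 arrays. BNIP3, a mitophagy receptor and HIF target, differed by 0.18, 0.17 and 0.02 with adjusted p-values of 0.66, 0.60 and 0.98.

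Clone HIF49 was measured in Normal only, and SDHC and NDUFB4 were the subunit genes that passed against LNCaP/Empty. There, 1 gene was higher and 1 lower at an adjusted p of 0.05 in limma (15 at an unadjusted p under 0.05), against 4.42% and 3.48% of detected genes. The lower one, NDUFB4, an accessory subunit in the membrane arm of complex I, was also past 1.5-fold, as were 1.31% of detected genes in that direction. Over all arrays, 2875 of 10951 detected genes had an unadjusted p under 0.05. Without the library labelled HIF49 Normal replicate 1, 2 subunit genes were higher and 0 lower (13 unadjusted), none of them past 1.5-fold. The shares of detected genes were then 4.11% higher and 3.41% lower. The median over the subunits was -0.04 with and -0.02 without that library. Complex IV medians of the HIF49 arrays were 12.24, 12.38, 12.81, 12.49 and 12.35 and overlapped those of LNCaP/Empty Normal, 12.34 to 12.89.

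SDHC was higher in HIF49 than in LNCaP/Empty. Its HIF49 arrays read 11.77, 11.60, 11.12, 11.41 and 11.64, and its LNCaP/Empty Normal arrays lay between 10.99 and 11.26 (median 11.16), so that HIF49 replicate 3 lay within the LNCaP/Empty range. The difference was 0.37 ± 0.08 (SE, adjusted p = 0.0074) and 0.31 without replicate 1 (adjusted p = 0.039). The second SDHC probe gave 0.17 and did not pass (adjusted p = 0.55), nor without replicate 1 (0.06, adjusted p = 0.91). NDUFB4 read 6.39, 7.70, 7.79, 7.96 and 7.65 in HIF49 against 7.86 to 8.34 (median 8.25) in LNCaP/Empty Normal. Replicate 1 stood far below the other HIF49 arrays, and replicate 4 reached the LNCaP/Empty range. The difference was -0.68 ± 0.17 (adjusted p = 0.022), and without replicate 1 it was -0.40 and did not pass (adjusted p = 0.091), nor did it when LNCaP/Empty Normal replicate 1, 5 or 6 was left out. A second NDUFB4 probe lay the other way, at 0.14 with and 0.10 without replicate 1, and did not pass (adjusted p = 0.79 and 0.90). In a fit of the compared arrays alone neither SDHC nor NDUFB4 passed (adjusted p = 0.20 and 0.31).

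Set against HIF12 in Normal, HIF49 had 2 subunit genes higher and 2 lower in limma (26 at an unadjusted p under 0.05), against 7.62% and 5.52% of detected genes. One of the lower genes passed 1.5-fold, as did 2.01% of detected genes in that direction. At an unadjusted p under 0.05 stood 3173 of 10951 detected genes. Arrays of the clones did not overlap for 4 of 83 subunit genes, against 11.3% of detected genes. SDHC was higher by 0.53 ± 0.09 (SE, adjusted p = 7.9e-05), with HIF12 Normal arrays at 10.86, 11.01, 11.11, 10.93 and 10.97, all below the HIF49 arrays. Its second probe was higher by 0.71 (adjusted p = 2.7e-05), and by 0.60 without replicate 1 (adjusted p = 0.00012). UQCR11 read 8.73, 8.73, 8.38, 8.53 and 8.58 in HIF49 and 8.19, 7.99, 8.25, 7.94 and 8.01 in HIF12, again with no overlap and a difference of 0.52 ± 0.12 (adjusted p = 0.0048).

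COX7B2, a paralogue of the complex IV subunit COX7B known from testis, and COX6A1 were lower in HIF49 than in HIF12. COX7B2 read 7.17, 6.80, 7.36, 7.50 and 7.31 in HIF49 and 8.25, 8.13, 7.67, 8.36 and 8.37 in HIF12. Every HIF49 array lay below every HIF12 array, and the difference of -0.93 ± 0.17 (SE, 1.90-fold, adjusted p = 0.00038) was the largest among the subunits between the clones. LNCaP/Empty Normal lay between them, at 7.59 to 7.84, and neither clone differed from it past the threshold (0.43, adjusted p = 0.23 for HIF12, and -0.50, adjusted p = 0.11 for HIF49, or -0.48, adjusted p = 0.20 without replicate 1). COX6A1 read 11.98, 12.38, 12.30, 12.26 and 12.35 in HIF49 against 12.60, 12.59, 12.52, 12.55 and 12.44 in HIF12. The difference was -0.29 ± 0.07 (adjusted p = 0.0062), and in a fit of the compared arrays alone it did not pass (adjusted p = 0.17). Without the library labelled HIF49 Normal replicate 1, SDHC (0.47), UQCR11 (0.48), COX7B2 (-0.91) and COX6A1 (-0.22) all still passed. In all, 6 subunits then did, 3 higher and 3 lower (16 at an unadjusted p under 0.05), against 7.35% and 5.83% of detected genes. Outside the subunits, MRPS10 was higher by 1.09 in HIF49 than in HIF12 (adjusted p = 3.2e-13), and by 1.06 without that library (adjusted p = 3.5e-12).

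**Figure D3:**
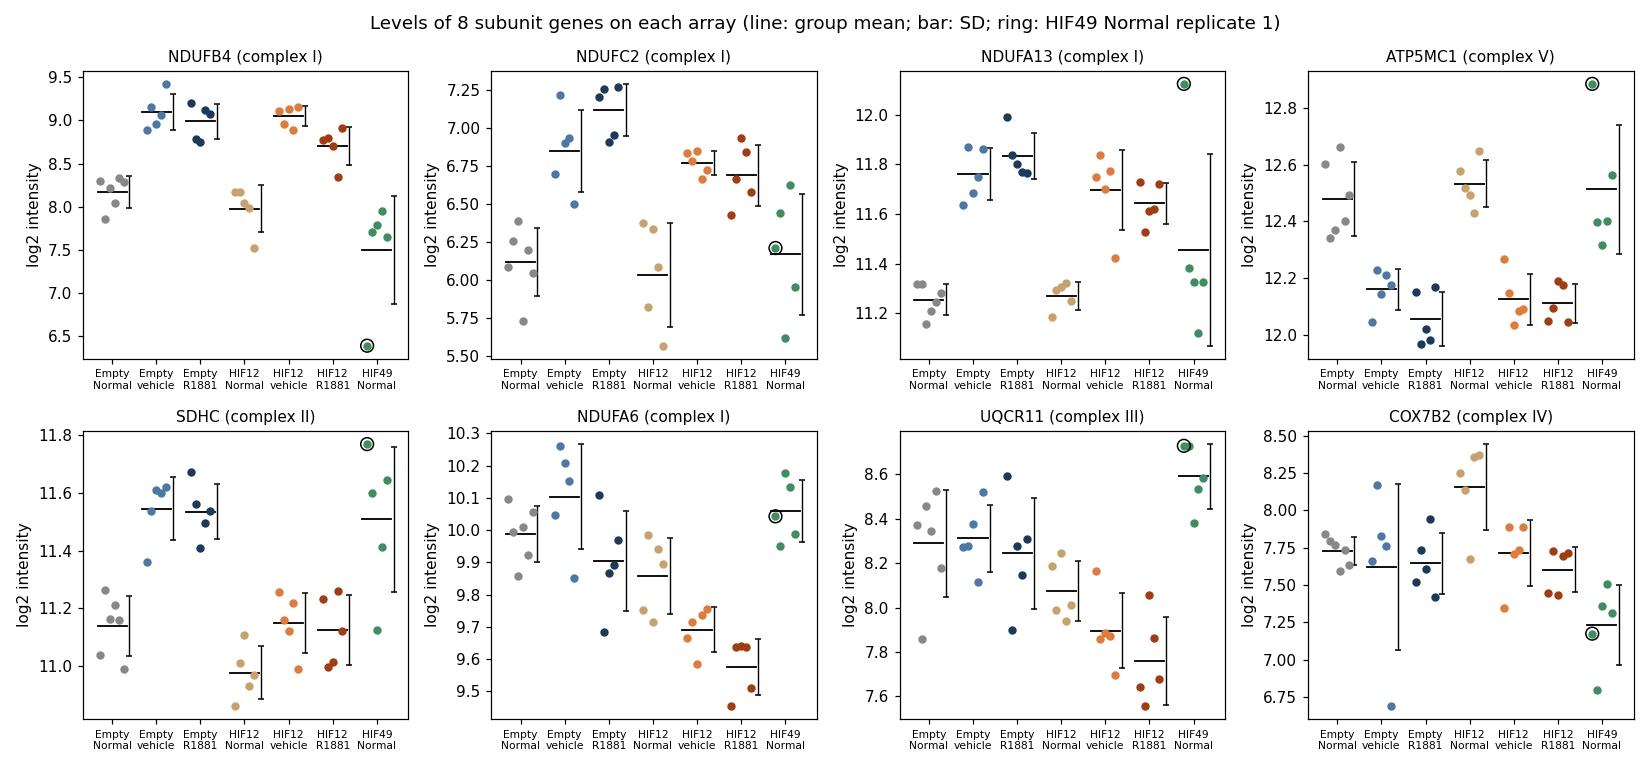
Log2 intensity of 8 subunit genes on each array in the 7 groups, with a line at the group mean, a bar of 1 SD and a ring on the library labelled HIF49 Normal replicate 1; each panel has its own scale. NDUFB4, NDUFC2 and NDUFA13 are higher and ATP5MC1 lower in the vehicle and R1881 groups than in the Normal groups of the same line, and the SDHC and NDUFA6 arrays of HIF12 lie below those of LNCaP/Empty in vehicle and in R1881.

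More subunit genes passed between vehicle and Normal arrays of the same line than in any other comparison made here. What differed besides the vehicle is not given by the labels, and KLK3 stood at 9.73 ± 0.14 (SD, n = 6) in LNCaP/Empty Normal against 7.76 ± 0.38 (n = 5) in vehicle. In LNCaP/Empty, 13 subunit genes were higher and 2 lower in vehicle at an adjusted p of 0.05 in limma (21 at an unadjusted p under 0.05). That is 15.7% and 2.41% of the 83, against 14.2% and 15.5% of detected genes. In HIF12, 8 were higher and 4 lower (22 unadjusted), or 9.64% and 4.82%, against 14.4% and 13.4%. Over the 76 subunit genes detected on at least 5 arrays, the shares were 17.1% and 2.63% in LNCaP/Empty and 10.5% and 5.26% in HIF12. Unadjusted p-values under 0.05 were found for 4899 of 10951 detected genes in LNCaP/Empty and 4818 in HIF12. Vehicle and Normal arrays did not overlap for 13 of 83 subunit genes in LNCaP/Empty and 18 in HIF12, against 24.7% and 31.2% of detected genes. Of the 15 calls in LNCaP/Empty and 12 in HIF12, which share no arrays, 8 were the same gene in the same direction, 53.3% and 66.7% of the 2 sets. Over detected genes, 2206 calls were shared in this way, 67.7% of those in LNCaP/Empty and 72.4% of those in HIF12, so the shares among the subunits were not above those of detected genes. In the test of the difference of that shift between the lines, 0 subunit genes passed (5 at an unadjusted p under 0.05), against 0.274% and 0.164% of detected genes.

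NDUFB4 rose most, and in both lines. In LNCaP/Empty, Normal arrays lay between 7.86 and 8.34 (median 8.25) and vehicle arrays read 8.89, 9.16, 8.96, 9.06 and 9.42. In HIF12 the arrays read 8.17, 8.17, 8.04, 7.99 and 7.52 in Normal and 9.10, 8.96, 9.13, 8.89 and 9.15 in vehicle. No arrays overlapped, and the differences were 0.92 ± 0.17 (SE, 1.90-fold, adjusted p = 0.00022) and 1.07 ± 0.18 (2.10-fold, adjusted p = 5.6e-05). With R1881 it read 8.75 to 9.20 in LNCaP/Empty and 8.34 to 8.91 in HIF12. A second NDUFB4 probe, dimmer and detected on 33 arrays, rose by 0.50 in LNCaP/Empty (adjusted p = 0.022), but its difference in HIF12 was 0.13 (adjusted p = 0.77), and another was detected on 0 arrays.

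NDUFC2, a further accessory subunit of the membrane arm, was the other gene past 1.5-fold, a size that 5.12% of detected genes reached upward in LNCaP/Empty and 6.25% in HIF12. Its Normal arrays lay between 5.73 and 6.39 in LNCaP/Empty (median 6.14), of which 5 of 6 detected it, and read 6.37, 5.82, 6.33, 6.08 and 5.57 in HIF12, of which 3 of 5 did. Vehicle arrays read 6.70, 7.22, 6.90, 6.93 and 6.50 in LNCaP/Empty and 6.83, 6.78, 6.85, 6.66 and 6.72 in HIF12, all above Normal. The differences were 0.73 ± 0.15 (SE, adjusted p = 0.00068) and 0.74 ± 0.16 (adjusted p = 0.0012). NDUFA13, a membrane arm subunit also known as GRIM-19, rose by 0.51 ± 0.10 (adjusted p = 0.00060) and 0.43 ± 0.11 (adjusted p = 0.0063).

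In complex I, the genes that rose in LNCaP/Empty were NDUFA2, NDUFA3, NDUFA11, NDUFA13, NDUFB2, NDUFB4 and NDUFC2, 7 of 36, with 0 lower, all of them accessory subunits, as most genes of this complex are. In HIF12, 6 of 36 were higher (NDUFA3, NDUFA13, NDUFB2, NDUFB4, NDUFC2 and the iron-sulfur core subunit NDUFS1) and 2 lower (NDUFA9 and NDUFB10, by -0.27 and -0.25). COX6C, a nuclear-encoded regulator of complex IV, rose by 0.25 in both lines (adjusted p = 0.0053 and 0.0086), and COX6A1 by 0.31 in LNCaP/Empty (adjusted p = 0.00092). SDHC rose by 0.41 in LNCaP/Empty (adjusted p = 0.00075), but its second probe gave -0.06 (adjusted p = 0.85). No gene of complex III passed in either line, with 1 and 2 of 9 at an unadjusted p under 0.05. NDUFB2 lay just inside the threshold, with adjusted p-values of 0.045 and 0.049.

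Of the 18 complex V genes, 3 were higher and 2 lower in LNCaP/Empty, and 1 was higher and 2 lower in HIF12. A rotor gene passed as lower in both lines and the catalytic beta subunit in LNCaP/Empty only. ATP5MC1, 1 of 3 genes for the c subunit of the rotor ring, fell from 12.34 to 12.66 (median 12.45) in LNCaP/Empty Normal to 12.05, 12.23, 12.14, 12.21 and 12.18 in vehicle. In HIF12 it read 12.58, 12.52, 12.49, 12.43 and 12.65 in Normal and 12.27, 12.15, 12.03, 12.08 and 12.09 in vehicle. No arrays overlapped in either line, with differences of -0.32 ± 0.08 (SE, adjusted p = 0.0045) and -0.41 ± 0.08 (adjusted p = 0.00050). A second ATP5MC1 probe was lower by -0.34 (adjusted p = 0.048) and -0.50 (adjusted p = 0.0038). ATP5F1B, the catalytic beta subunit, fell by 0.23 in LNCaP/Empty (adjusted p = 0.0076), and the small membrane subunit ATP5MJ by 0.22 in HIF12 (adjusted p = 0.043). The call of ATP5MJ was lost in 7 of 10 fits that left out 1 array, with an adjusted p of up to 0.12.

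ATP5IF1, which blocks reverse action of the ATP synthase, rose in both lines by 0.37 ± 0.09 and 0.34 ± 0.10 (SE, adjusted p = 0.0062 and 0.016). A second probe of ATP5IF1 did not pass in either. ATP5F1E, the epsilon subunit of the stalk, and ATP5MK, a small subunit linked to dimers of the synthase, rose in LNCaP/Empty by 0.32 and 0.47 (adjusted p = 0.0038 and 0.029), and the call of ATP5MK was lost in 6 of 11 fits that left out 1 array (adjusted p up to 0.071).

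Among genes around the chain, several biogenesis regulators and mitochondrial ribosomal proteins were lower in vehicle than in Normal, while most genes of both lists did not pass. Of 13 regulators of mitochondrial biogenesis, 6 were lower and 0 higher in each line, and all 13 differences were below 0 in both, with medians of -0.24 and -0.30 against -0.02 and -0.01 for detected genes. The share lower was 46.2% in each line, against 15.5% and 13.4% of detected genes. The mitochondrial helicase TWNK was lower by -0.67 and -0.76 (adjusted p = 0.00029 and 9.0e-05), and TFAM, which packages mitochondrial DNA, by -0.22 and -0.40 (adjusted p = 0.046 and 0.00019). PPARGC1B, called lower in HIF12, was detected on 2 arrays. Of 76 mitochondrial ribosomal proteins, 15 were lower and 4 higher in LNCaP/Empty, and 27 lower and 0 higher in HIF12. The shares lower were 19.7% and 35.5%, against 15.5% and 13.4% of detected genes. MRPL32 was lower by -0.69 and -0.70 (adjusted p = 2.5e-08 and 5.5e-08).

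Of 16 genes of the TCA cycle and pyruvate dehydrogenase, 6 were lower and 1 higher in LNCaP/Empty and 4 and 1 in HIF12, so that 37.5% and 25.0% were lower against 15.5% and 13.4% of detected genes. Citrate synthase (CS) was lower by -0.31 and -0.21 (adjusted p = 2.1e-05 and 0.0047) and DLAT, of the pyruvate dehydrogenase core, by -0.47 and -0.38 (adjusted p = 0.00031 and 0.0064), whereas IDH3G was higher by 0.45 and 0.51 (adjusted p = 0.0039 and 0.0018). Among 40 assembly factors, 7 were higher and 5 lower in LNCaP/Empty and 5 and 7 in HIF12. These are 17.5% and 12.5% in LNCaP/Empty, against 14.2% and 15.5% of detected genes. In HIF12 they are 12.5% and 17.5%, against 14.4% and 13.4%. Among the 10 HIF-linked brakes, 2 were higher and 3 lower in LNCaP/Empty (20% and 30%) and 2 and 1 in HIF12 (20% and 10%), beside the same shares of detected genes. CHCHD4, an import factor that is on this list but is not itself a brake, was lower by -0.61 and -0.70 (adjusted p = 3.4e-09 and 3.9e-10). The mitophagy receptor BNIP3L was higher by 0.62 and 0.59 (adjusted p = 0.0047 and 0.011). Among 12 genes of cytochrome c and quinone synthesis, 2 were higher and 3 lower in LNCaP/Empty (16.7% and 25%). In HIF12, 1 was higher and 4 lower (8.33% and 33.3%). PDSS1, which makes the side chain of ubiquinone, was lower by -0.61 and -0.65 (adjusted p = 1.6e-05 and 1.4e-05).

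**Figure D4:**
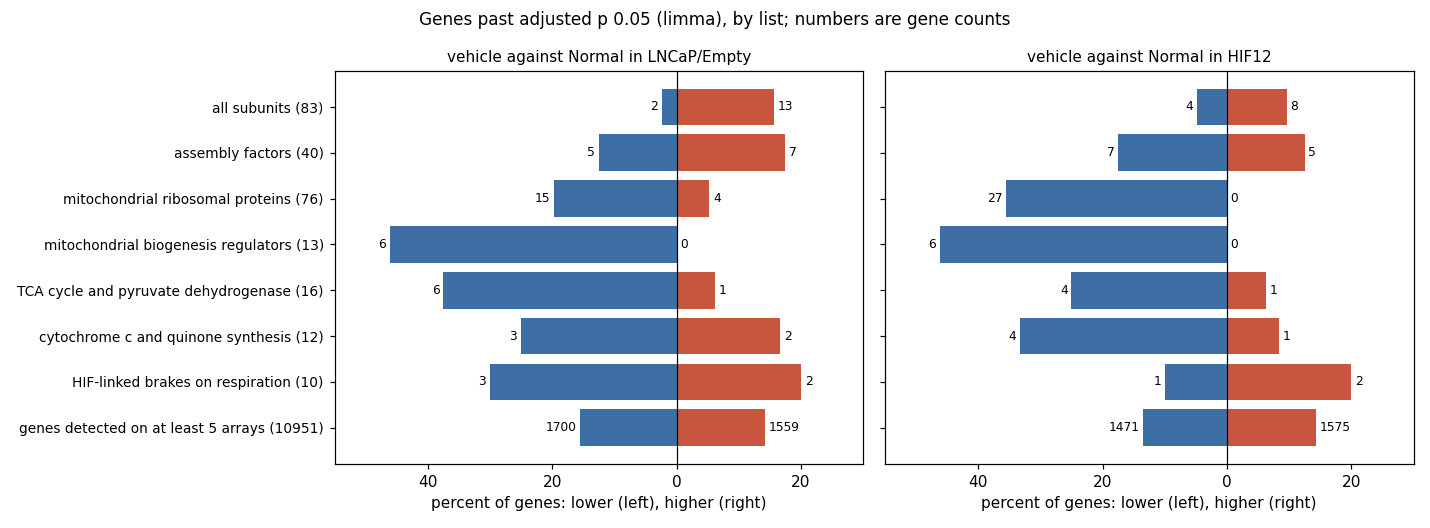
Share of genes of each list past an adjusted p of 0.05 (limma) between vehicle and Normal, higher to the right and lower to the left, in LNCaP/Empty and HIF12; bar ends carry the gene counts and list names the number measured. The subunits have 13 higher and 2 lower genes in LNCaP/Empty, while the biogenesis regulators have 6 lower and 0 higher in both lines.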

How the data were processed

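Gene expression was read from 36 Illumina BeadArrays in 7 groups. The deposited probe intensity values, with a detection p-value that the authors' scanner software gave for each probe and array, were not normalized; methods text names an older array version than the probe table. Intensities of 48105 probes were background corrected on the detection p-values (limma 3.58.1 in R 4.3.3, offset 16), quantile normalized and put on the log2 scale. A second deposited table of normalized values served as an alternative. Each gene was read from its brightest probe, and a probe counted as detected at a detection p under 0.01. All 7 groups were fitted together with lmFit and eBayes, and p-values were adjusted over all probes by Benjamini-Hochberg. Calls were made at an adjusted p of 0.05, with 1.5-fold as a second threshold. The fit was tested on simulated data. The number of arrays limits the precision.

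Up to 5 genes higher and 5 lower per comparison were named by size of difference, with core subunits, isoform pairs and genes just outside a threshold; further genes that passed were named after their values were seen. Members and lists were chosen with earlier results of these data known. Alternatives covered background correction, normalization, dim probes, the arrays in the fit, array weights, running numbers, the replicate number as a block, probe choice and each array left out. Parental and hypoxia arrays were not analysed here. Promoters came from RefSeq (GRCh38.p14), and figures were drawn with Python 3.11.15 and matplotlib 3.10.9.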

Additional observations from a re-analysis of the deposited data

Results flagged for a closer look

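An array counted as standing apart where its gap to the nearest other array of its group, divided by the range of the group, passed Dixon's critical value, which chance does in about 1 of 20 groups. Examined were preset core subunits and isoforms, the subunit genes that passed a comparison, and the median of all subunits. Over 259 combinations of such an item and a group, 16 had an array that stood apart. Of these, 5 lay in the library labelled HIF49 Normal replicate 1, whose HIF1A level went against its label. The part of that library's other differences in these values was not tested. ATP5MK read 7.05 in HIF49 Normal replicate 1 against 7.95 to 8.30 on the group's other arrays, a gap of 0.721 of the range. COX6C read 13.52 in HIF49 Normal replicate 1 against 13.78 to 13.86 on the group's other arrays, a gap of 0.789 of the range. NDUFA13 read 12.13 in HIF49 Normal replicate 1 against 11.12 to 11.38 on the group's other arrays, a gap of 0.738 of the range. NDUFB4 read 6.39 in HIF49 Normal replicate 1 against 7.65 to 7.96 on the group's other arrays, a gap of 0.806 of the range. UQCRC1 read 12.13 in HIF49 Normal replicate 1 against 11.50 to 11.65 on the group's other arrays, a gap of 0.757 of the range.

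The other arrays that stood apart were spread over 6 groups. ATP5F1A read 14.27 in LNCaP/Empty vehicle replicate 1 against 14.45 to 14.47 on the group's other arrays, a gap of 0.896 of the range. COX6A1 read 12.83 in LNCaP/Empty R1881 replicate 1 against 12.65 to 12.66 on the group's other arrays, a gap of 0.922 of the range. COX7A2 read 14.13 in LNCaP/Empty vehicle replicate 5 against 14.40 to 14.49 on the group's other arrays, a gap of 0.766 of the range. COX7A2 read 13.85 in HIF12 Normal replicate 3 against 14.15 to 14.20 on the group's other arrays, a gap of 0.859 of the range. NDUFA3 read 13.07 in LNCaP/Empty Normal replicate 4 against 12.73 to 12.86 on the group's other arrays, a gap of 0.629 of the range. NDUFA3 read 13.30 in LNCaP/Empty vehicle replicate 5 against 13.03 to 13.10 on the group's other arrays, a gap of 0.750 of the range. NDUFA9 read 10.94 in HIF12 vehicle replicate 3 against 11.07 to 11.09 on the group's other arrays, a gap of 0.873 of the range. NDUFB10 read 13.25 in HIF12 vehicle replicate 5 against 13.34 to 13.36 on the group's other arrays, a gap of 0.805 of the range. NDUFB4 read 7.52 in HIF12 Normal replicate 5 against 7.99 to 8.17 on the group's other arrays, a gap of 0.712 of the range. NDUFB8 read 12.31 in HIF12 R1881 replicate 2 against 12.42 to 12.46 on the group's other arrays, a gap of 0.718 of the range. NDUFS1 read 7.44 in LNCaP/Empty vehicle replicate 5 against 7.72 to 7.81 on the group's other arrays, a gap of 0.760 of the range.

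Differences between the clones in Normal passed the test in limma for 4 subunits. HIF49 minus HIF12 was -0.29 for COX6A1, -0.93 for COX7B2, 0.53 for SDHC and 0.52 for UQCR11.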

How the results depend on the processing

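Of the counts and medians over the subunits, 317 of the values under other settings stayed close to those reported and 31 moved, as did 311 and 9 with 1 array left out. A count was taken as close if it was equal or within 1.5-fold, and counts of 0 that stayed 0 are included. Medians were taken as close if they moved by less than the mean SD of the array medians in the compared groups. No single gene reversed, and 36 values under other settings and 44 with 1 array left out lost the threshold, among them NDUFB2 in all 10 HIF12 fits that left out an array. For HIF12 against LNCaP/Empty with R1881, the count of 3 became 5 in 3 settings, with 1 gene higher and 4 lower. These were no background correction, the deposited normalized table and detected probes only. The count became 1 with median scaling, where that gene was higher, or with the compared arrays alone, where that gene was lower. In vehicle it went from 2 to 1 with median scaling. In Normal it went from 1 to 0 with median scaling. It became 2 (1 higher, 1 lower) with running numbers in blocks of 12 or of 6, and 3 (2 higher, 1 lower) with array weights. For HIF49 against LNCaP/Empty, the count of 2 became 4 with detected probes only, 0 with the compared arrays alone and 1 with array weights. Its 1 gene past 1.5-fold became 0 without background correction, with plain normexp, in the deposited table, with the compared arrays alone and with array weights. HIF49 against HIF12 went from 4 to 7 with either blocking of running numbers. Between vehicle and Normal, the 2 genes past 1.5-fold became 1 in both lines without background correction, with plain normexp and in the deposited table. Under median scaling the subunit median was -0.11 for HIF49 against LNCaP/Empty and -0.00896 for vehicle against Normal in LNCaP/Empty. With 1 array left out, HIF49 against LNCaP/Empty gave 1 to 3 genes and 0 to 1 past 1.5-fold, HIF12 against LNCaP/Empty in Normal 0 to 1, and HIF49 against HIF12 1 to 2 past 1.5-fold. Fewer arrays or probes in a fit follow from those settings, and otherwise the cause was not tested.

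Same-numbered arrays deviated from their group means with correlations of -0.12 to 0.12, taken over all 48105 probes. Only 19105 of these probes were detected on at least 5 arrays, and noise in the others draws such correlations towards 0. Whether the replicate numbers pair the samples therefore cannot be told from these values. With the replicate number as a block, the count was 0 for HIF12 against LNCaP/Empty in Normal and 1 for HIF49 against LNCaP/Empty, with 0 past 1.5-fold, 3 for HIF12 against LNCaP/Empty in vehicle and 3 with R1881, and 13 and 10 for vehicle against Normal. Probes below detection, such as those of COX4I2 and NDUFS6, limit what their differences can show.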
